A study of Homo sapiens with 5 samples.

Results

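The 36 genes described here act in the mitotic cell cycle and were chosen by name from the 32732 genes that the count files of all 5 libraries list. By the phase they are commonly grouped with, 9 were counted as S-phase members (TYMS, RRM2, MCM3, MCM10, CLSPN, DTL, PCLAF, MYBL2 and CENPU), 25 as G2 and M members (G2/M), and 2 (HMGB3 and ZWINT) as neither. This grouping does not follow the time of action of every product. MYBL2, counted with S, acts on genes of G2 and M, and CENPU is a kinetochore protein. All 36 are protein-coding, were detected in every library and passed the filter on low counts, so that none was left out of a test. The libraries are single-cell RNA profiles of human brain organoids (hBOs) and grafted brain organoids (GBOs) made from H9, an established human embryonic stem cell line. All 5 carry the same label for genotype (WT), and the methods of the study describe the H9 derivative as carrying the light-gated channel ChR2 and the fluorescent protein EYFP at the AAVS locus. D0 is an untransplanted library of organoids at day 42 of culture, and HIP_2MPT, PFC_2MPT, HIP_4MPT and PFC_4MPT are grafts in the hippocampus (HIP) or prefrontal cortex (PFC) of immunodeficient SCID-Beige mice, 2 or 4 months post transplantation (MPT). There was 1 library per condition, and each pooled cells of several organoids or grafts of 1 cell line, so that differences between single organoids or host animals cannot be seen.

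A dividing cell copies its DNA in S phase, using enzymes that make nucleotides and a machinery that unwinds and copies the double helix, and then prepares and carries out division in G2 and M with cyclins, the kinase CDK1, the spindle and the anaphase-promoting complex. Many of these genes are transcribed in waves: E2F factors drive genes of the S phase, while a complex that binds a short promoter element called CHR, often next to CCAAT boxes, acts on genes of G2 and M. In the developing forebrain, radial glia line the ventricle and divide, intermediate progenitors divide for a limited time, and neurons have left the cycle.

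Stretches of 150 bases before the RefSeq start of 5 members (GRCh38.p14) are shown because they hold, or lack, the elements searched in promoters of the S and G2/M members. Capitals mark the CCAAT box, read as CCAAT in either direction, the CHR, read as TTTGAA in the stretches shown (its other form in the search was TTCGAA), and the E2F site, and lower case marks all other bases. CDC20, which activates the anaphase-promoting complex, CCNB2, a cyclin that binds CDK1, and MKI67, the proliferation marker Ki-67, are G2/M members. TYMS, which makes the thymidine nucleotide, and MCM10, a replication factor, are S members. In MKI67, the second CHR and the CCAAT box beside it share 1 base and stand as 1 run of capitals.
CDC20, chr1:43358831-43358980, plus strand: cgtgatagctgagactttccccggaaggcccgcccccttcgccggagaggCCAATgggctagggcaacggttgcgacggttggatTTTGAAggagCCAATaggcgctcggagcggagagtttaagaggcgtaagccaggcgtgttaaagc
CCNB2, chr15:59104996-59105145, plus strand: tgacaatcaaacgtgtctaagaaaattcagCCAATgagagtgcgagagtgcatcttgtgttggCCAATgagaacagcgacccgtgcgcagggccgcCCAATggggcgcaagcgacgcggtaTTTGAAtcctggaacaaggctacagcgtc
MKI67, chr10:128126424-128126573, minus strand: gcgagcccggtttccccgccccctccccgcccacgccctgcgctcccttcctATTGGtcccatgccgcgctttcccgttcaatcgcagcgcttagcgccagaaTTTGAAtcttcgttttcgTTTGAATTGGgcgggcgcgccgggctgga
TYMS, chr18:657503-657652, plus strand: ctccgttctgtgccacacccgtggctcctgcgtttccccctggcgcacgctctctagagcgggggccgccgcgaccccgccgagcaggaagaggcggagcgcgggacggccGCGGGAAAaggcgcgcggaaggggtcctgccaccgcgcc
MCM10, chr10:13161408-13161557, plus strand: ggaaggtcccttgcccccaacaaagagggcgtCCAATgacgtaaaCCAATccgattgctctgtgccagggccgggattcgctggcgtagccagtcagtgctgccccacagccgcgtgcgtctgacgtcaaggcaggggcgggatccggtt

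RefSeq promoter windows were at hand for 31 of the 36 members, as 37 windows, and motifs were searched on both strands in the 250 bases before each start. A CHR was present in 14 of 22 windows of G2/M members (13 of 20 genes) and in 0 of 11 windows of S members, against 14.3% of all 35116 windows. A CCAAT box was present in 21 of 22 G2/M windows and in 8 of 11 S windows, against 32.0% of all. An E2F site (TTTCCCGC, TTTCGCGC, TTTGCCGC or TTTGGCGC) was present in 5 of 11 S windows and 3 of 22 G2/M windows, against 2.79% of all. Lists of other S-phase genes and of other G2 and M genes, described below, were searched as well. In their windows a CHR was present in 5 of 37 and 18 of 44, and an E2F site in 13 of 37 and 0 of 44. A CCAAT box was present in 23 of 37 and 25 of 44, so that it did not separate the phases there. These matches of letters describe the windows and are no evidence of binding.

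The human cells kept numbered 4885 in D0, 8277 and 5952 in the HIP and PFC grafts of 2MPT, and 6913 and 8363 in those of 4MPT, and their median UMI count (unique molecular identifiers, 1 for each RNA molecule captured) ran from 1253 in HIP_2MPT to 9847 in D0. D0 was also counted with another release of Cell Ranger and another annotation, and was dissociated with another enzyme, than the grafts, so that these differences cannot be told apart from transplantation in any comparison with D0. Levels are given as CPM, the UMIs of a gene scaled to 1 common total of human UMIs of the same cells, and differences as log2 fold changes from edgeR ± standard error. The HIP and the PFC library stand as the 2 samples of a stage, which puts the difference between sites into their spread, and the spread of the lone D0 library was taken to be that of the grafts. Both comparisons with D0 share that library.

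In the sum over all human cells, the 36 members together were higher in D0 than in every graft. Their summed level was 3886 CPM in D0, 1156 CPM (HIP) and 2160 CPM (PFC) at 2MPT, and 1707 CPM (HIP) and 1766 CPM (PFC) at 4MPT, that is 29.7% to 55.6% of the D0 level. HIP_2MPT was the lowest library and PFC_2MPT the highest graft. The S members made up 387 CPM in D0 and 149.9, 305, 204 and 211 CPM in HIP_2MPT, PFC_2MPT, HIP_4MPT and PFC_4MPT. The G2/M members made up 3166 CPM in D0 and 896, 1689.9, 1379 and 1425 CPM in the same grafts. The sum of G2/M members was thus 1.87-fold to 3.53-fold lower in grafts than in D0, and that of S members 1.27-fold to 2.58-fold lower. In these sums, fewer cycling cells and less of each transcript per cycling cell cannot be told apart.

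**Figure D1:**
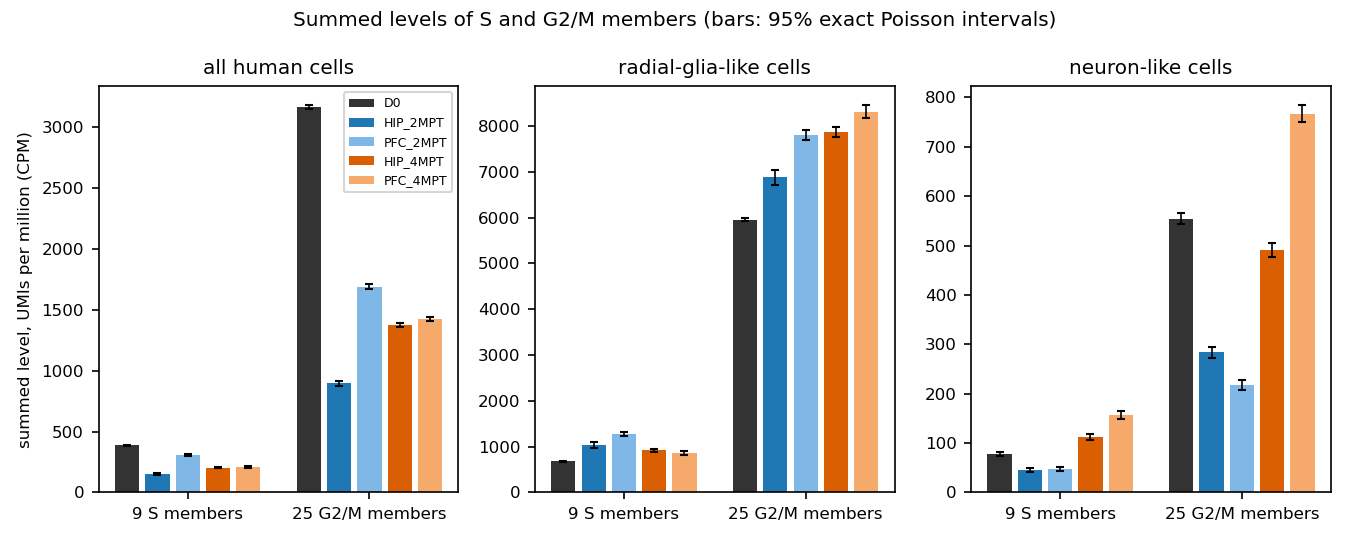
Summed levels of the 9 S members and the 25 G2/M members as scaled UMIs (CPM, vertical axis), in all human cells and in radial-glia-like cells, 1 bar per library with 95% exact Poisson intervals that cover counting error only. In all human cells D0 is highest for both groups (387 and 3166 CPM), while in radial-glia-like cells D0 is lowest for both (681 and 5959 CPM).

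In edgeR's quasi-likelihood test, with p-values adjusted over all genes by the Benjamini-Hochberg method, 30 of the 36 members fell from D0 to 2MPT and 0 rose, against 21.1% of all genes tested that fell. From D0 to 4MPT, 30 of 36 fell and 0 rose, against 21.4% of all genes tested that fell. The median log2 fold change of the members was -1.66 at 2MPT and -1.51 at 4MPT, against 0.07 and 0.08 over all genes. All 4 grafts lay below D0 for 31 of the 36 members, a count that was not made over all genes and so has no background share. For the alternatives that follow, the shares of all genes called were not counted. With library totals in place of edgeR's TMM factors, 23 members were called at 2MPT and 21 at 4MPT, each of them lower. These totals moved the median of all genes at 2MPT to 0.44 and at 4MPT to 0.40. Without PFC_4MPT, 16 members were called at 4MPT.

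Among the chromosome proteins, MKI67 was at 87.7 CPM in D0 and at 13.0, 31.2, 23.7 and 16.4 CPM in HIP_2MPT, PFC_2MPT, HIP_4MPT and PFC_4MPT. Every graft lay below D0, and MKI67 fell by 2.35 ± 0.42 on the log2 scale at 2MPT (edgeR adjusted p = 0.0012) and by 2.45 ± 0.42 at 4MPT (adjusted p = 0.00084). HMGB2, a DNA-bending protein abundant in dividing cells, was at 474 CPM in D0 and 145, 326, 237 and 298 CPM in the grafts. It fell by 1.38 ± 0.41 at 2MPT (edgeR adjusted p = 0.019) and by 1.14 ± 0.42 at 4MPT (adjusted p = 0.042), and neither call held with library totals, at 2MPT without HIP_2MPT (-0.89) or PFC_4MPT (-1.32), or at 4MPT without HIP_4MPT (-0.93) or PFC_4MPT (-1.30). Its relative HMGB3 was at 309.5 CPM in D0 and between 98.5 and 140.4 CPM in grafts, and fell by 1.74 ± 0.29 and 1.84 ± 0.29. TOP2A, the topoisomerase that untangles sister chromosomes, completed the 4 genes of this role, all of which fell at both times.

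All 5 genes of the group of cyclins, CDK1 and CKS2 fell at both times. CDK1, the kinase that drives entry into mitosis, was at 114 CPM in D0 and at 22.8, 57.2, 52.0 and 59.1 CPM in HIP_2MPT, PFC_2MPT, HIP_4MPT and PFC_4MPT. HIP_2MPT lay below the other grafts, which lay close together, and CDK1 fell by 1.87 ± 0.42 at 2MPT (edgeR adjusted p = 0.0046) and by 1.35 ± 0.42 at 4MPT (adjusted p = 0.022). The call at 4MPT was lost without HIP_4MPT (-1.21) and without PFC_4MPT (-1.43). CKS2, a small subunit that binds this kinase, went from 283 CPM in D0 to 127, 143, 107 and 145 CPM and fell by 1.44 ± 0.29 and 1.48 ± 0.29. CCNA2, the cyclin of S and G2, fell most in this group, by 2.60 ± 0.39 at both times, from 68.0 CPM in D0 to between 9.04 and 19.6 CPM.

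The 3 genes of the anaphase-promoting complex and sister separation also fell at both times. PTTG1, the securin that holds sister chromatids together until anaphase, was at 302 CPM in D0 and 76.7, 126, 109 and 130.1 CPM in grafts, and fell by 1.94 ± 0.33 at 2MPT (edgeR adjusted p = 0.00084) and by 1.65 ± 0.33 at 4MPT (adjusted p = 0.0021). UBE2C, the ubiquitin-conjugating enzyme of the complex, was at 284 CPM in D0 and 64.5, 109, 96.7 and 143 CPM in grafts. It fell by 2.08 ± 0.36 and 1.55 ± 0.36. CDC20, whose promoter is shown above, went from 111 CPM to between 15.4 and 32.8 CPM.

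Of 6 genes of the centromere, the kinetochore and the chromosomal passenger complex, 5 fell at 2MPT and 4 at 4MPT. CENPF, a large kinetochore protein of G2 and M, was at 219 CPM in D0 and 52.9, 133, 125 and 78.5 CPM in HIP_2MPT, PFC_2MPT, HIP_4MPT and PFC_4MPT. It fell by 1.599 ± 0.45 at 2MPT (edgeR adjusted p = 0.013) and by 1.43 ± 0.45 at 4MPT (adjusted p = 0.021). Without PFC_4MPT neither call held (-1.54 and -1.11). BIRC5, the passenger protein survivin, went from 100.4 CPM to between 26.3 and 57.4 CPM and fell by 1.62 ± 0.40 and 1.83 ± 0.40. ZWINT, a kinetochore protein, was not called: it was at 23.3 CPM in D0 and 11.3, 24.9, 17.3 and 21.8 CPM in grafts, so that PFC_2MPT lay above D0. CENPU, a kinetochore protein counted with the S members, was at 35.98 CPM in D0 and at 19.3 to 31.4 CPM in grafts, with an edgeR adjusted p of 0.049 at 2MPT and 0.056 at 4MPT.

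Among the 10 genes of the spindle, the mitotic kinases and cytokinesis, 8 fell at 2MPT and 9 at 4MPT. TPX2, which activates Aurora kinase A on the spindle, was at 123 CPM in D0 and 16.2, 31.6, 25.5 and 23.0 CPM in the grafts, and fell by 2.73 ± 0.35 at 2MPT (edgeR adjusted p = 0.00016) and by 2.66 ± 0.35 at 4MPT (adjusted p = 0.00018). PLK1, a kinase of mitotic entry and cytokinesis, fell by 2.85 ± 0.35 and 2.60 ± 0.35, from 62.4 CPM to between 8.13 and 14.3 CPM. NUSAP1, which bundles spindle microtubules, was the exception at both times. It was at 108 CPM in D0 and at 58.2, 136, 113 and 95.3 CPM in HIP_2MPT, PFC_2MPT, HIP_4MPT and PFC_4MPT, so that grafts lay on both sides of D0. Its log2 fold changes were -0.52 ± 0.41 at 2MPT (edgeR adjusted p = 0.32) and -0.37 ± 0.41 at 4MPT (adjusted p = 0.47). PRC1, which bundles microtubules of the central spindle, had a log2 fold change of -0.83 ± 0.32 at 2MPT (edgeR adjusted p = 0.054). The remaining spindle and cytokinesis genes, among them ASPM, HMMR, KIF20A, KIF23, GTSE1 and PBK, had log2 fold changes between -2.61 and -1.02 and were called at both times.

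The S members were less uniform. Of the 7 genes of replication and nucleotide supply, 4 fell at 2MPT and 4 at 4MPT. PCLAF, a factor bound to the replication clamp PCNA, was at 115 CPM in D0 and 43.5, 98.4, 66.5 and 63.4 CPM in grafts, and fell by 1.06 ± 0.39 at 2MPT (edgeR adjusted p = 0.045) and by 1.14 ± 0.39 at 4MPT (adjusted p = 0.033). PCLAF lost its call at 2MPT without HIP_2MPT (-0.58), HIP_4MPT (-1.05) or PFC_4MPT (-1.009), and at 4MPT without HIP_4MPT (-1.12) or PFC_4MPT (-1.09). TYMS was at 102 CPM in D0 and 20.2, 54.1, 34.3 and 49.9 CPM in grafts, and fell by 1.82 ± 0.46 and 1.59 ± 0.46, the latter call being lost without HIP_4MPT (-1.29) or PFC_4MPT (-1.87). MCM3, a subunit of the replicative helicase, and MCM10 also fell at both times. RRM2, a subunit of the enzyme that makes deoxynucleotides, was at 24.95 CPM in D0 and 19.2, 32.9, 21.6 and 21.9 CPM in grafts and was not called. DTL, which marks the licensing factor CDT1 for destruction in S phase, was at 12.3 CPM in D0 and 13.6, 23.2, 14.4 and 11.5 CPM in grafts, with log2 fold changes of 0.21 ± 0.38 and -0.25 ± 0.37. The checkpoint adaptor CLSPN was not called either, with PFC_2MPT at 23.2 CPM against 22.2 CPM in D0. MYBL2, a transcription factor that acts on genes of G2 and M, went from 20.3 CPM to 6.24, 10.5, 5.15 and 7.14 CPM and fell by 1.64 ± 0.40 (edgeR adjusted p = 0.0065) and 2.04 ± 0.40 (adjusted p = 0.0019).

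**Figure D2:**
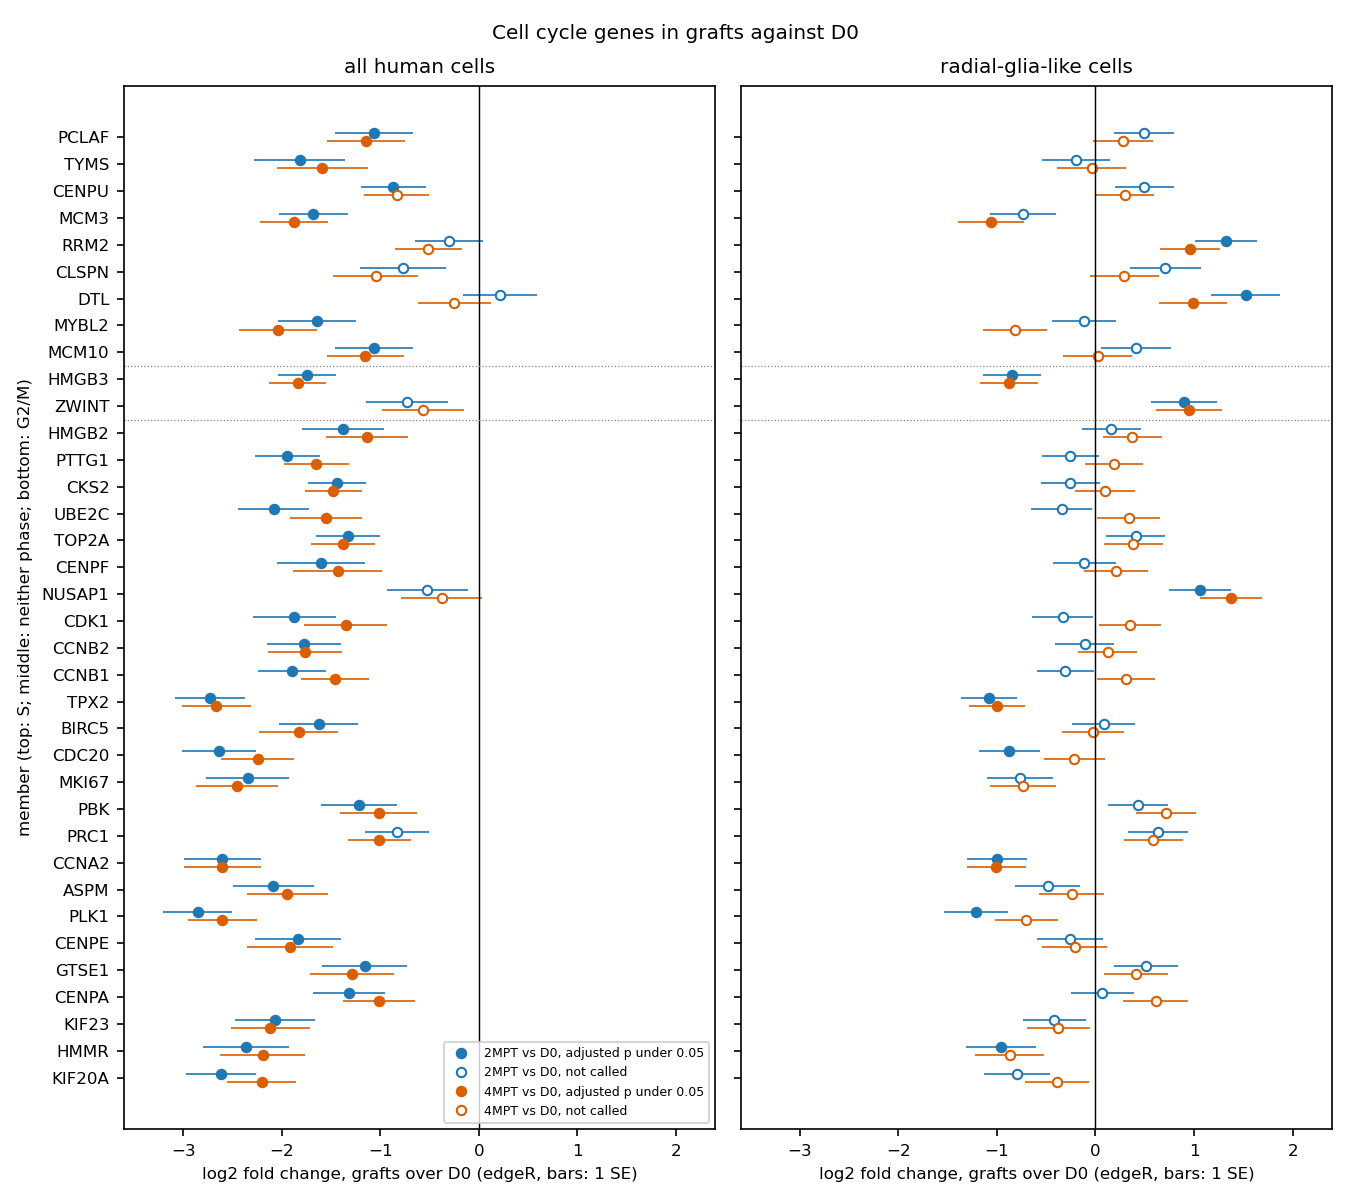
Log2 fold changes from edgeR of all 36 members in grafts over D0, at 2MPT and 4MPT, in all human cells and in radial-glia-like cells, with bars of 1 standard error; filled points have an adjusted p under 0.05. In all human cells 30 members are called lower at each time, while in radial-glia-like cells the points lie on both sides of 0.

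From 2MPT to 4MPT in all human cells, 0 of the 36 members were called by edgeR, against 2.4% of all genes, and 0 by DESeq2. In edgeR 0 members had an unadjusted p under 0.05, against 2614 of 19074 genes tested. The fitted changes ran from -0.46 (DTL) to 0.53 (UBE2C), with a median of 0.03. The sites had different directions, with 34 of 36 members higher at 4MPT than at 2MPT in HIP and 8 of 36 in PFC. These counts compare single libraries, and the share of all genes that went the same way was not counted. Without PFC_2MPT, 5 members were called higher at 4MPT, namely CENPF, CCNB1, CDK1, TYMS and CDC20. The share of all genes called without PFC_2MPT was not counted. On simulated data for this comparison, edgeR found 85 of 100 genes changed 4-fold and 12 of 100 genes changed 2-fold. The simulation held no difference between sites, which in the real test is part of the spread. Its rates may thus be too high for members that differ between sites.

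Between PFC and HIP grafts, with the stage as a covariate, 0 of 36 members were called by edgeR, against 0.0876% of all genes, and 0 by DESeq2. The fitted difference was above 0 for all 36 members, with a median of 0.49 against 0.00 over all genes. In edgeR 8 of the 36 members had an unadjusted p under 0.05, against 423 of 17121 genes tested. TYMS had the smallest p. It was at 54.1 and 49.9 CPM in the PFC libraries and at 20.2 and 34.3 CPM in the HIP libraries, so that the sites did not overlap, with a fitted difference of 1.02 ± 0.31 (edgeR adjusted p = 0.60). At 2MPT, PFC was above HIP for 36 of 36 members, and at 4MPT for 18 of 36, counts of single libraries without the share over all genes. On simulated data for this comparison, 80 of 100 genes changed 4-fold were found and 9 of 100 changed 2-fold.

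The next comparisons separate cell classes, which were named from marker lists after clustering without 124 cell cycle genes, so that no member entered the clustering. Of the members' UMIs, radial-glia-like cells held 88.6% in D0, 62.1% and 81.5% in HIP_2MPT and PFC_2MPT, and 69.9% and 54.6% in HIP_4MPT and PFC_4MPT. Such cells were 41.99% of the cells in D0 and 7.13%, 12.6%, 8.46% and 6.15% of the cells in the same grafts. Members were thus concentrated in a class that made up a smaller share of every graft than of D0. This class rests on the integration of the libraries, and without it the class held almost only D0 cells. Neuron-like cells held 7.59% of member UMIs in D0 and 26.6%, 10.1%, 20.3% and 37.5% in the grafts.

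Although no member entered the clustering, 2 clusters of radial-glia-like cells were led by members. The histone gene HIST1H4C, among others, was not on the list of 124 genes left out, so that clusters could still form on the cycle. The first, of 1050 cells, had CDC20, UBE2C, CCNB1, CENPF, CCNB2, PLK1, PTTG1, TPX2 and TOP2A among its 10 leading genes, and the second, of 946 cells, had the histone gene HIST1H4C followed by RRM2, PCLAF, TYMS, MYBL2 and CLSPN. In all 5 libraries, each of the 25 G2/M members was higher in the first and each of the 9 S members in the second. HMGB3 went with the G2/M cluster and ZWINT with the S cluster in all 5. Together these clusters held 77.8%, 56.0%, 73.6%, 63.5% and 50.9% of the member UMIs of D0, HIP_2MPT, PFC_2MPT, HIP_4MPT and PFC_4MPT. These values describe clusters whose leading genes are members and are no test.

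At 4MPT, member UMIs were also found in a cluster of 217 cells named neuron-like and led by the GABAergic genes GAD2, DLX1, DLX2 and DLX5 with HIST1H4C. Its mean z score for the neuron list was 0.398, under the 0.6 needed, so that it took this name by default, as other clusters did. Whether its cells were neurons was not tested. The cluster had 73 cells in HIP_4MPT and 133 in PFC_4MPT, against 2 in D0, 2 in HIP_2MPT and 7 in PFC_2MPT. It held 9.61% of the member UMIs of HIP_4MPT and 18.8% of those of PFC_4MPT, against 0.196%, 0.180% and 1.00% in D0, HIP_2MPT and PFC_2MPT. The summed member level in these cells was 10846 CPM in HIP_4MPT and 12442 CPM in PFC_4MPT, between the 9031 and 8871 CPM of the S cluster and the 21101 and 21588 CPM of the G2/M cluster in the same libraries. The median UMI count of its cells was 1.70 times that of their libraries, against 1.55 in the G2/M cluster and 1.72 in the S cluster. Whether doublets of a neuron and a dividing cell contributed was not tested. A larger neuron-like cluster of 1448 cells was led by NRXN3, GAD2 and the same DLX genes. It held 2.77% and 8.04% of the member UMIs of HIP_4MPT and PFC_4MPT, with a summed member level of 1550 and 1192 CPM in these libraries.

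**Figure D3:**
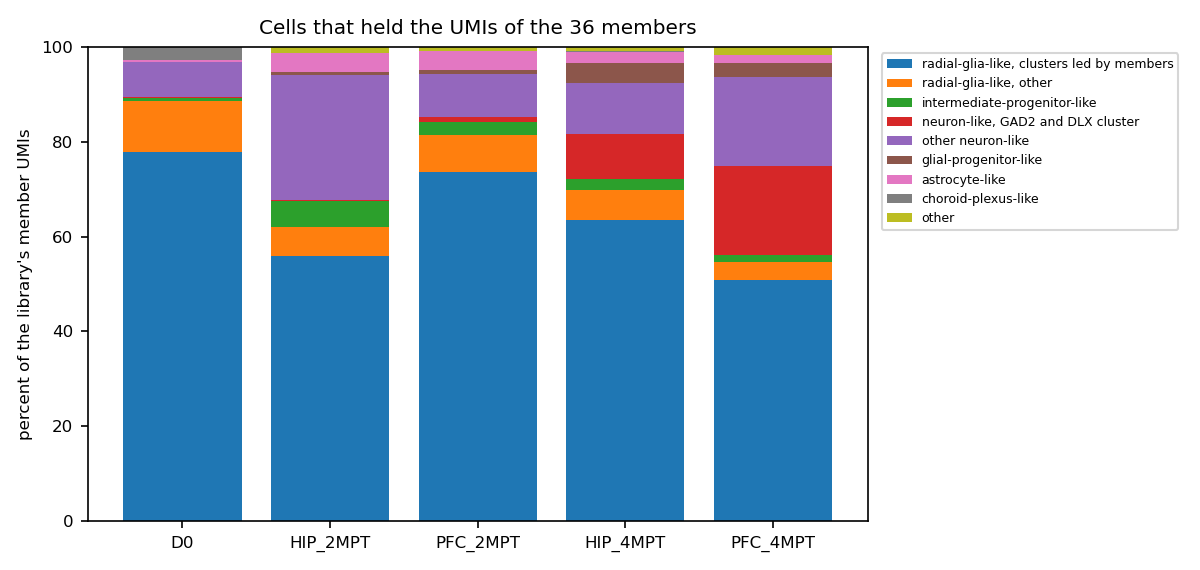
Share of each library's member UMIs (percent, vertical axis) by cell class, 1 stacked bar per library. The radial-glia-like clusters led by members are the largest piece in every library (77.8% in D0 to 50.9% in PFC_4MPT), and the neuron-like cluster led by GAD2 and DLX genes appears at 4MPT (9.61% and 18.8%).

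The identity genes of the 2 radial-glia-like clusters led by members differed between libraries. The radial glia markers VIM and HES5 were present in them in every library, VIM at 666 to 5617 CPM and HES5 at 271 to 4387 CPM. VIM was highest in D0. The neuron marker STMN2 was present as well, at 168, 750, 218, 149 and 281 CPM in D0, HIP_2MPT, PFC_2MPT, HIP_4MPT and PFC_4MPT. In HIP_2MPT it stood above VIM (703 CPM) and HES5 (271 CPM), so that the name radial-glia-like is least clear there. PAX6, a radial glia factor, was at 334 CPM in D0 and at 181, 247, 157 and 143 CPM in HIP_2MPT, PFC_2MPT, HIP_4MPT and PFC_4MPT. NEUROG2, a factor of excitatory neurogenesis, was at 295, 96.1, 179.8, 23.1 and 27.8 CPM in D0 and the same grafts. EOMES, a marker of intermediate progenitors, was at 47.6 CPM in D0, 277 and 299 CPM in the 2MPT grafts, and 111 and 83.3 CPM in the 4MPT grafts. OLIG1, a glial progenitor gene, was at 0.177 CPM in D0 (2 UMIs), 3.15 and 34.1 CPM at 2MPT, and 549 and 257 CPM at 4MPT. EGFR, a receptor of late progenitors, was at 1.33, 20.5, 48.6, 239.9 and 139.9 CPM, and GAD2 at 1.77, 7.88, 1.68, 57.5 and 288 CPM, in D0, HIP_2MPT, PFC_2MPT, HIP_4MPT and PFC_4MPT. The other radial-glia-like cells differed between libraries in like manner, with OLIG1 at 0.0631, 39.98, 99.6, 916 and 389 CPM, EGFR at 2.02, 15.4, 81.1, 378 and 273 CPM, and GAD2 at 1.70, 6.15, 1.03, 16.7 and 131 CPM in D0, HIP_2MPT, PFC_2MPT, HIP_4MPT and PFC_4MPT. These identity genes thus moved with the libraries of the whole class, and their part in the member levels was not tested.

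Within radial-glia-like cells, the members together were lowest in D0. Their summed level was 7096 CPM in D0 and 8271, 9518, 9121 and 9568 CPM in HIP_2MPT, PFC_2MPT, HIP_4MPT and PFC_4MPT. D0, the highest library in all human cells, was thus the lowest here, while HIP_2MPT was the lowest graft in both. The clusters led by members held 667 of 2051 radial-glia-like cells in D0, 346 of 590 and 450 of 752 in the HIP and PFC grafts of 2MPT, and 270 of 585 and 263 of 514 in those of 4MPT. They were thus a smaller part of the class in D0 than in every graft. Outside them, the summed member level in the class was 1480 CPM in D0 and 2402, 2613, 1829 and 1552 CPM in these grafts. Inside them it was 14991 CPM in D0 and 11278, 13274, 15177 and 15404 CPM in the same grafts. There D0 lay above both 2MPT grafts and below both 4MPT grafts, so that D0 was lowest in the class but not in these clusters. Glial-progenitor-like cells formed another class, with 2 cells in D0, 37 and 42 at 2MPT, and 965 and 705 at 4MPT. What the assignment of cells contributed to levels and comparisons within the class was not tested beyond the removal of these clusters.

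In this class edgeR called 4 members higher and 6 lower at 2MPT than in D0, against 21.6% of all genes called higher and 15.5% called lower. At 4MPT it called 4 higher and 4 lower, against 22.6% and 16.2% of all genes. The members' shares were thus below or close to those of all genes. For the alternatives that follow, the shares of all genes called were not counted. With library totals, the split was 11 higher and 0 lower at 2MPT and 6 higher and 2 lower at 4MPT. These totals moved the median of all genes at 2MPT from 0.04 to 0.42. Without the 6% of cells with the most UMIs it was 4 higher and 12 lower at 2MPT, without HIP_2MPT it was 4 higher and 2 lower, and without the clusters led by members it was 5 higher and 0 lower.

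The members called higher were the same 4 at both times, NUSAP1, RRM2, DTL and ZWINT. NUSAP1 was at 209 CPM in D0 and 488, 644, 688 and 582 CPM in HIP_2MPT, PFC_2MPT, HIP_4MPT and PFC_4MPT, so that every graft lay above D0. It rose by 1.06 ± 0.31 at 2MPT (edgeR adjusted p = 0.013) and by 1.37 ± 0.32 at 4MPT (adjusted p = 0.0026), against the direction of TPX2 in its role. RRM2 was at 47.3 CPM in D0 and 163, 148, 113 and 102 CPM in grafts, and rose by 1.33 ± 0.31 (adjusted p = 0.0033) and 0.96 ± 0.31 (adjusted p = 0.020). DTL was at 22.8 CPM in D0 and 79.2, 90.8, 63.9 and 41.7 CPM in grafts, and rose by 1.52 ± 0.35 and 0.99 ± 0.34. ZWINT was at 43.0 CPM in D0 and 89.6, 117, 85.6 and 109 CPM in grafts, and rose by 0.90 ± 0.34 and 0.95 ± 0.34. Calls lost when 1 library was left out were those of NUSAP1 and ZWINT at 2MPT without PFC_2MPT (0.84 and 0.67), of RRM2 and DTL at 4MPT without HIP_4MPT (0.90 and 0.66), and of ZWINT at 4MPT without PFC_4MPT (0.73). These 4 genes are among those that were not called lower in the sum over all human cells.

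TPX2, CCNA2 and HMGB3 fell in radial-glia-like cells at both times. TPX2 was at 237 CPM in D0 and 135, 155, 149 and 128 CPM in grafts, all below D0, and fell by 1.08 ± 0.29 (edgeR adjusted p = 0.0071) and 1.00 ± 0.28 (adjusted p = 0.011). CCNA2 was at 133 CPM in D0 and 81.3, 90.8, 69.3 and 85.7 CPM in grafts, and fell by 1.00 ± 0.30 (adjusted p = 0.016) and 1.006 ± 0.30 (adjusted p = 0.014). HMGB3 fell by 0.85 ± 0.29 and 0.88 ± 0.29. PLK1, HMMR and CDC20 fell at 2MPT alone by this test, by 1.21 ± 0.32, 0.96 ± 0.36 and 0.87 ± 0.31, and the difference between the times was not past the threshold for any of them. MCM3 was at 69.1 CPM in D0 and 41.7, 63.6, 44.4 and 32.7 CPM in grafts, and fell at 4MPT by 1.06 ± 0.33 (edgeR adjusted p = 0.019), while the S members RRM2 and DTL rose. Without HIP_2MPT the calls at 2MPT were lost for CCNA2 (-0.90), HMGB3 (-0.68), HMMR (-0.74) and CDC20 (-0.81), the last also without PFC_2MPT (-0.91), and at 4MPT they were lost for CCNA2 (-0.84) and HMGB3 (-0.74) without HIP_4MPT and for MCM3 (-0.90) without PFC_4MPT. MKI67 was at 173 CPM in D0 and 105, 157, 149.8 and 94.7 CPM in grafts, with log2 fold changes of -0.76 ± 0.33 (adjusted p = 0.082) and -0.73 ± 0.33 (adjusted p = 0.089).

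Most other members of these cells were not called. TOP2A was at 495 CPM in D0 and 961, 759, 897 and 621 CPM in grafts, all above D0, with log2 fold changes of 0.41 ± 0.30 and 0.38 ± 0.30. UBE2C was at 553 CPM in D0 and 593, 547, 632 and 998 CPM in grafts, and CDK1 at 218 CPM in D0 and 187, 261, 299 and 352 CPM. For each of these 2 genes a single graft lay below D0, PFC_2MPT for UBE2C and HIP_2MPT for CDK1. All 4 grafts lay below D0 for 8 of the 36 members and above D0 for 17. These counts were not made over all genes and so have no background share.

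From 2MPT to 4MPT in radial-glia-like cells, 0 members were called by edgeR, against 0.948% of all genes, and 0 by DESeq2, with 5 at an unadjusted p under 0.05. Those members were CDK1 (0.69 ± 0.26), UBE2C (0.68 ± 0.26), CCNB1 (0.61 ± 0.24) and CDC20 (0.66 ± 0.26), all above 0, and MYBL2 (-0.70 ± 0.29), with edgeR adjusted p-values between 0.37 and 0.46. Between PFC and HIP, 0 were called by edgeR, against 0.0083% of all genes, and 0 by DESeq2. TYMS alone had an unadjusted p under 0.05 (0.66 ± 0.26, edgeR adjusted p = 1.00), against 295 of 12044 genes tested.

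The S and the G2/M members can be compared within each library as the S share, the UMIs of the 9 S members as a percent of those of all 34 S and G2/M members. In all human cells it was 10.9% in D0 (95% Clopper-Pearson interval 10.76% to 11.03%), 14.3% and 15.3% in the HIP and PFC grafts of 2MPT, and 12.9% in both grafts of 4MPT. Every graft lay above D0, and the graft mean was 13.8% ± 1.17 (SD, n = 4). In radial-glia-like cells the S share was 10.3% in D0, 13.0% and 14% in the 2MPT grafts, and 10.5% and 9.37% in the 4MPT grafts. In this class the 2MPT grafts stood above both other stages, and PFC_4MPT was the lowest library. Inside single clusters the order differed. The S share of the S cluster was 26.2% in D0 and 21.6%, 21.6%, 21.4% and 22.4% in HIP_2MPT, PFC_2MPT, HIP_4MPT and PFC_4MPT. That of the G2/M cluster was 3.22% in D0 and 2.94%, 3.16%, 2.27% and 2.25%, so that D0 was highest in both. The rest of the class had 36.7% in D0 and 34.3%, 42.4%, 38.7% and 32.6%. The part of the mix of these clusters in the class value was not tested. Intervals cover counting error only, and no test of these shares was run, since an exact permutation test of 2 libraries against 2 cannot give a p below 0.333.

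The fitted changes were also summarised by phase. In all human cells the median log2 fold change at 2MPT was -1.06 for S members and -1.87 for G2/M members, and at 4MPT it was -1.14 and -1.65. In radial-glia-like cells it was 0.49 for S and -0.26 for G2/M members at 2MPT, and 0.28 and 0.12 at 4MPT, when the S shares of the class lay on both sides of D0. From 2MPT to 4MPT in that class, 1 of 9 S members and 20 of 25 G2/M members were above 0, with medians of -0.37 and 0.24. The most abundant members weigh most in the shares, and without HMGB2 the S share was 12.6% in D0 and 16.5% in the mean of grafts.

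**Figure D4:**
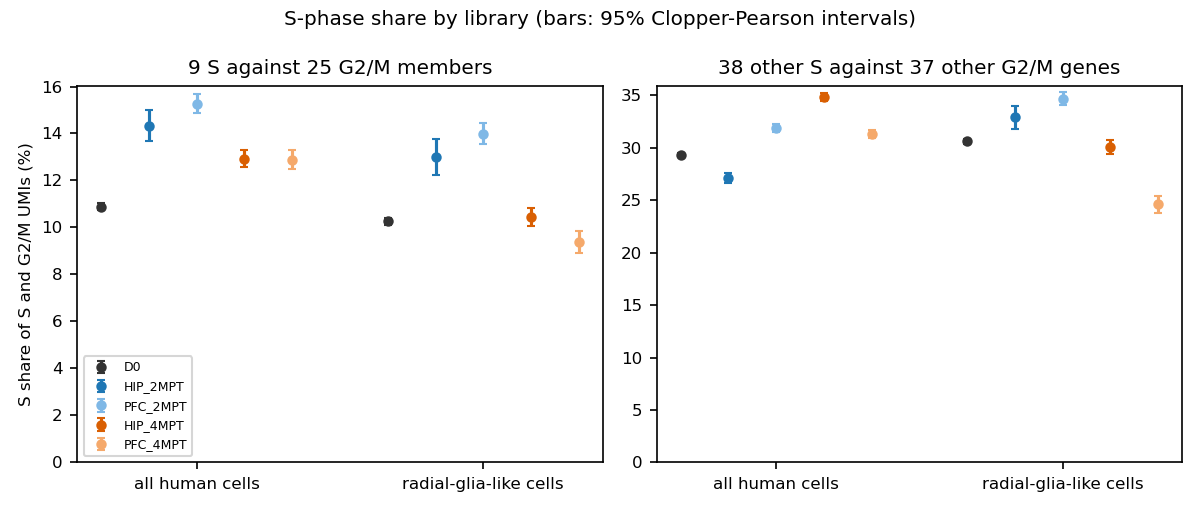
S share, the UMIs of S-phase genes as a percent of S and G2/M UMIs, per library with 95% Clopper-Pearson intervals, for the members (left) and for the other cell cycle genes (right). For the members in radial-glia-like cells, the 2MPT grafts (13.0% and 14%) lie above D0 (10.3%) and above the 4MPT grafts (10.5% and 9.37%).

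A list of 38 other S-phase genes and 37 other G2 and M genes allowed the same ratio without any member. Their S share in radial-glia-like cells was 30.6% in D0, 32.9% and 34.7% in the 2MPT grafts, and 30.0% and 24.6% in the 4MPT grafts. As for the members, the 2MPT grafts stood above both other stages. Both 4MPT grafts lay below D0 here, while for the members they lay on both sides of it. In all human cells it was 29.3% in D0 and 27.1%, 31.9%, 34.9% and 31.3% in the grafts, so that D0 lay between grafts. That ratio does not describe dividing cells alone. Neuron-like cells held 42283 of the 165821 UMIs of the other G2 and M genes in D0 and 18698 of 26881 in HIP_2MPT. Of the 38 S-phase genes, 4 rose and 13 fell at 2MPT and 5 rose and 16 fell at 4MPT in all human cells, and of the 37 G2 and M genes 28 and 29 fell and 0 rose, against 27.2% of all genes higher and 21.1% lower at 2MPT, and 28.7% and 21.4% at 4MPT. In radial-glia-like cells, 8 of the S-phase genes rose and 1 fell at 2MPT, and 7 rose and 4 fell at 4MPT, while 1 of the G2 and M genes rose and 4 fell at 2MPT, and 3 rose and 3 fell at 4MPT. No share of either list that rose was above that of all genes (21.6% and 22.6%), and no share that fell was above theirs (15.5% and 16.2%). NASP, a histone chaperone of S phase, was at 206 CPM in D0 and 180.5, 184, 142 and 139 CPM in HIP_2MPT, PFC_2MPT, HIP_4MPT and PFC_4MPT of all human cells, and fell at 4MPT alone by the test (-0.87 ± 0.26, edgeR adjusted p = 0.017), with no call between the stages, while SLBP, which binds histone mRNA, stood at 61.4 CPM in D0 and between 48.0 and 69.7 CPM in grafts. TUBB4B, a tubulin, was at 317 CPM in D0 and 152 to 214 CPM in grafts and fell by 0.98 ± 0.30 and 1.10 ± 0.30. JPT1, which is also expressed outside division, was at 762 CPM in D0 and 1463, 1250.2, 818 and 990.0 CPM in those grafts. The 2MPT grafts were highest, and JPT1 was not called. Its UMIs count among those of the other G2 and M genes, and their S share was not computed without it.

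Genes that govern entry into the cycle and exit from it were read from separate lists that hold no member. Of 13 entry genes, 0 rose and 5 fell at 2MPT in all human cells, against 27.2% and 21.1% of all genes, and 1 rose and 6 fell at 4MPT, against 28.7% and 21.4%. CCND2 and CDK4, a cyclin and a kinase of G1, were not called: CCND2 was at 295 CPM in D0 and 350.1, 420.0, 388 and 345 CPM in HIP_2MPT, PFC_2MPT, HIP_4MPT and PFC_4MPT, and CDK4 stood between 97.0 and 112 CPM in all 5 libraries. CCND1, another G1 cyclin, was at 113 CPM in D0 and 0.361, 0.735, 11.7 and 6.84 CPM in those grafts, and was the entry gene called between the stages of grafts (4.06 ± 0.41, edgeR adjusted p = 0.00087). Of 15 exit genes, 14 were tested, of which 4 rose and 4 fell at each time, shares near those of all genes. CDKN1C, an inhibitor of cyclin-dependent kinases, was at 98.1 CPM in D0 and 17.3, 27.9, 76.6 and 73.9 CPM in the same grafts, and rose from 2MPT to 4MPT by 1.78 ± 0.27 (edgeR adjusted p = 0.0072). BTG1, an antiproliferative gene, stood between 376 and 532 CPM in all 5 libraries and was not called. GADD45G, a growth arrest gene, was at 91.7 CPM in D0 and 755, 549.5, 246 and 373 CPM in grafts, and rose at 2MPT by 2.45 ± 0.39 and at 4MPT by 1.45 ± 0.37.

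In single cells, the members were counted after each cell had been thinned to 1000 UMIs, which left out cells with fewer (282 in D0 and 1635, 233, 171 and 982 in HIP_2MPT, PFC_2MPT, HIP_4MPT and PFC_4MPT). At least 3 members were detected in 19.9% of D0 cells (95% Clopper-Pearson interval 18.8% to 21.1%) and in 6.94%, 9.55%, 6.76% and 7.98% of the cells of these grafts, with a graft mean of 7.81% ± 1.28 (SD, n = 4). D0 stood above every graft. Without thinning, the shares were 72.9% in D0 and 7.38%, 15.6%, 13.7% and 11.4% in grafts, at median depths of 9847, 1253, 2359, 2759 and 1840 UMIs. Thinning thus moved D0 far more than it moved any graft.

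In radial-glia-like cells at 1000 UMIs, at least 3 members were detected in 38.5% of cells in D0. The share was 67.4%, 58.8%, 50.9% and 55.8% in HIP_2MPT, PFC_2MPT, HIP_4MPT and PFC_4MPT. The clusters led by members were a smaller part of this class in D0 than in every graft. In neuron-like cells the share was 4.90% in D0 and 0.918%, 0.779%, 2.97% and 5.09% in the same grafts. At 4MPT it includes both clusters led by GAD2 and DLX genes. In the smaller one 95.8% of cells in HIP_4MPT and 97.7% in PFC_4MPT had at least 3 members, and in the larger one 14.2% and 10.1%. The other neuron-like clusters were set apart after their values were seen. Their share was 4.78% in D0 and 0.841%, 0.418%, 0.362% and 0.833% in HIP_2MPT, PFC_2MPT, HIP_4MPT and PFC_4MPT. Some members were present in neuron-like cells too. In D0, those outside the smaller cluster had HMGB3 at 244 CPM and CKS2 at 121 CPM, against 413 and 450 CPM in radial-glia-like cells. The shares of these clusters are thus no background of cells that lack the members. Of all cells with at least 3 members, radial-glia-like cells made up 83.3% in D0 and 77.4%, 79.9%, 64.9% and 47.5% in the grafts, and neuron-like cells 9.71%, 10.2%, 5.49%, 25.4% and 45.3%. In PFC_4MPT, both classes thus held nearly equal numbers of such cells, 280 and 267, and 233 of the 267 were in the clusters led by GAD2 and DLX genes.

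MKI67 alone was detected in few cells at this depth. In radial-glia-like cells at least 1 of its UMIs was seen in 175 of the 1986 D0 cells (8.81%) and in 9.81%, 9.70%, 9.12% and 8.37% of cells of HIP_2MPT, PFC_2MPT, HIP_4MPT and PFC_4MPT, with intervals that overlapped. In neuron-like cells the share was 0.605% in D0 and between 0.104% and 0.705% in grafts. In all human cells it was 4.06% in D0 and 1.05% to 1.42% in grafts. Within radial-glia-like cells, these intervals, which cover counting error only, did not separate D0 from the grafts for MKI67 at this depth. The summed level of MKI67 in the class was below D0 in every graft (173 against 105, 157, 149.8 and 94.7 CPM) and was not called. Such an overlap of intervals was not seen for every member. TOP2A was seen in 18.9% of radial-glia-like cells in D0 and in 40.6%, 29.4%, 32.2% and 25.3% in the same grafts, all above D0. In all human cells TOP2A was seen in 9.49% in D0 and in 3.93% to 5.09% in grafts.

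**Figure D5:**
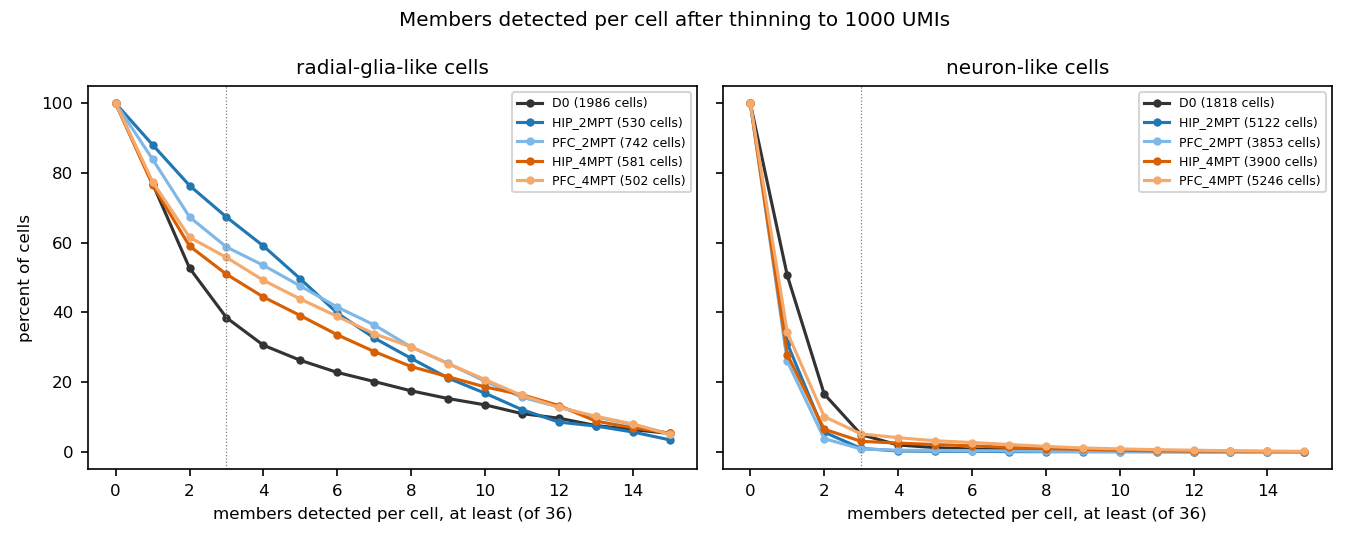
Percent of cells (vertical axis) with at least a given number of the 36 members detected (horizontal axis) after thinning to 1000 UMIs, in radial-glia-like (left) and neuron-like cells (right), 1 line per library. At 3 members (dotted line) D0 is lowest in radial-glia-like cells (38.5%), and neuron-like cells lie between 0.779% and 5.09%.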

How the data were processed

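Single-cell RNA of 5 libraries was measured with the 10x 3′ kit (v3), and the deposited files hold raw UMI counts per gene and barcode, made by the authors with Cell Ranger (3.1 in the labels; 3.1.0 in the header of D0 and 5.0.0 in those of the grafts) and not normalized. Grafts were also counted against a human-mouse reference, used here for the species filter. Whether intronic reads were counted is not given in the sources used here. The members and lists were chosen with earlier results of these data known, and the genes named in the text are MKI67, the most abundant members of each role, members called against the majority of their role, and the most abundant or called genes of the other lists; RRM2, DTL, ZWINT, TOP2A, CCNB1, CDC20, PLK1, HMMR, CENPU, CLSPN and PRC1 beyond that, and the marker genes of the clusters, were named after their values were seen.

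Barcodes were kept with over 500 UMIs, over 500 genes, log10 of the genes divided by log10 of the UMIs over 0.80, a mitochondrial share under 15% and, in grafts, a human share over 80%, which left 34390 of 42435. Pairs of libraries shared 6 to 20 barcodes. No doublet caller was run, and an alternative left out the 6% of cells with the most UMIs. Cells were clustered in R 4.3.3 with sctransform 0.4.2 and Seurat 5.3.0 (2500 variable genes, RPCA integration, 40 components, resolution 0.8) without 124 cell cycle genes, and a cluster took the name of the list with the highest mean z score over clusters if it was at least 0.6, or neuron-like by default where the neuron score was positive; 306 cells stayed unnamed. Both the integration and the rebuilt names can move class values.

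Counts of the 32732 genes listed by all libraries were added up in each library, over all human cells or over radial-glia-like cells. Over all human cells they came to 55866969 UMIs in D0 and from 11066442 in HIP_2MPT to 21177885 in HIP_4MPT. The sums were tested with edgeR 4.0.16 (filterByExpr, TMM, quasi-likelihood F test, threshold 0.05) in 1 model of 3 groups. PFC was tested against HIP in the 4 grafts with the stage. Labels do not say that libraries are biological replicates, so that p-values measure the spread between these libraries. Simulated data with known changes were used to test the procedure. DESeq2 1.42.0, library totals, no filter on low counts, other cell filters, the human genes of the dual reference, clustering choices, the site as a block and each graft left out were alternatives; removing the clusters led by members, and setting the neuron-like clusters led by GAD2 apart, were added after seeing the data. Promoters were read from RefSeq (GRCh38.p14) and matched by symbol. Other assays of the study were not analysed here.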

Additional observations from a re-analysis of the deposited data

Results flagged for a closer look

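The summed level of the members in all human cells went in opposite directions at the 2 graft sites from 2MPT to 4MPT. In HIP it was 551.9 CPM higher at 4MPT for all 36 members, 54.5 CPM higher for the S members and 483 CPM higher for the G2/M members. In PFC it was different by -394 CPM for all members, -94.0 CPM for the S members and -265 CPM for the G2/M members. Each of these values compares 1 library with 1 other, and the difference between the sites was not tested. By member, 27 of 36 were higher at 4MPT in HIP and lower in PFC, and 7 were higher at both sites. The shares of all genes with these directions were not counted. HIP_2MPT, the lowest library, also had the fewest UMIs per cell, and the part of depth in this result was not tested. Dixon's test at the 95% level marked no library in 10 groups of 4 grafts, where chance marks about 1 group in 20.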

How the results depend on the processing

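No called member changed sign under any alternative, and 22 of 30 (2MPT) and 16 of 30 (4MPT) calls in all human cells held under every alternative other than the removal of the clusters led by members, as did those of DTL and RRM2 (2MPT) and of NUSAP1 and TPX2 (4MPT) among 10 and 8 in radial-glia-like cells. Leaving out 1 graft library gave 22 to 34 members called at 2MPT and 16 to 32 at 4MPT against D0 in all human cells (16 without PFC_4MPT), and 0 to 5 between the stages (5 without PFC_2MPT). In radial-glia-like cells it gave 6 to 11 (6 without HIP_2MPT), 6 to 9 and 0. In that class, 16 members were called at 2MPT and 15 at 4MPT without the 6% of cells with the most UMIs. There were 5 at 2MPT without the clusters led by members, and 5 at 4MPT with DESeq2. The shares of all genes called under these alternatives were not counted.

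The S share of D0 (10.9%) was 12.1% without the 6% of cells with the most UMIs, 10.3% in radial-glia-like cells, 36.7% in these without the clusters led by members, 11.5% with ZWINT counted as S, 7.49% for members of published phase lists and 12.6% without HMGB2. The graft mean (13.8%) was 17.8%, 11.7%, 36.98%, 9.97% and 16.5% for the same choices except that of ZWINT, and 13.4% to 14.2% when 1 library was left out. The share of D0 cells with at least 3 members (19.9%) was 32.8% for at least 2 members, 12.1% for at least 5, 13.3% at 500 UMIs, 72.9% without thinning and 16.5% without HMGB2 and HMGB3. The graft mean (7.81%) was 12.7%, 5.34%, 4.97% and 12% for the first 4 of these and 5.87% without the 6% of cells with the most UMIs, and 7.23% to 8.16% when 1 library was left out. The causes were not tested, other than what these choices remove.

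Without integration, radial-glia-like cells could not be compared, since 3 grafts then held 0 UMIs in that class. The clusters then named radial-glia-like held 1277 and 327 cells of D0 and 2 cells of PFC_4MPT. A cluster with NUSAP1, TOP2A and PBK among its leading genes was then named intermediate-progenitor-like. It had 290, 328, 315 and 355 cells of HIP_2MPT, PFC_2MPT, HIP_4MPT and PFC_4MPT. The class name of graft cells, on which every comparison within radial-glia-like cells rests, thus depended on the integration. PFC against HIP has no residual degrees of freedom with 1 library left out. No paired analysis was possible because the labels number no replicates; the site as a block called 0 members between the stages. The lone D0 library, its earlier age, its other release of Cell Ranger and the few UMIs per graft cell limit every comparison with D0.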
